A study of Saccharomyces cerevisiae with 6 samples.

Results

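The pheromone signalling cascade of *S. cerevisiae* was followed through 10 genes, *GPA1*, *STE4*, *STE18*, *STE5*, *STE11*, *STE7*, *FUS3*, *STE12*, *FAR1* and *SST2*. They were chosen by gene symbol, for their place in the pathway, at a time when earlier results of these data were known, and every probe set that the platform annotation gives to one of them was taken. This yielded 12 probe sets of 9275 tested, for 10 of 5656 genes. *FUS3* had 3 probe sets and each of the other genes had 1.

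Cells of the haploid strain S288C, of mating type alpha, were grown in a synthetic medium with glucose. Pterostilbene, a dimethylether analog of the plant phenolic resveratrol, was added to 3 cultures at 70 μM, a concentration that the labels give as the IC50, and 3 control cultures received the solvent, DMSO, at 0.25%. All 6 cultures shared the strain and its markers (*SUC2*, *CUP1*, *mal*, *mel* and *gal2*, together with *flo1* and a mutant *FLO8* allele), treatment began at an absorbance of 0.2, and the harvest followed at 0.5. Total RNA of each culture was hybridized to 1 Affymetrix GeneChip Yeast Genome S98 array, and no pheromone or mating partner is named among the treatments. The compound slows growth at this dose, so an effect of growth rate or of time to harvest and an effect of the compound itself cannot be told apart. The labels do not give the DMSO content of the pterostilbene cultures. An effect of unequal solvent, if there was any, cannot be told apart from that of the compound either.

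In yeast mating, each haploid cell type secretes a peptide pheromone that binds a receptor on cells of the opposite type. The receptor acts through a heterotrimeric G protein, whose freed beta-gamma dimer recruits a scaffold and the protein kinase Ste20p and so starts a MAP kinase cascade. The cascade activates a transcription factor for mating genes and an inhibitor of the G1 cyclin kinase, and several of its own components are known to be induced by it. It is also known for sharing kinases with the filamentation and osmotic stress pathways of the same cell.

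The values are linear intensity signals, 1 per probe set and array, as the authors' Affymetrix software gave them. Their mean without the lowest and highest 2% was 500.4 to 500.5 on every array, while the median signal was 119 to 123 on control arrays and 162 to 170.2 on pterostilbene arrays. Pearson's r between the log2 signals of 2 arrays was 0.965 to 0.975 within a group and 0.914 to 0.924 between groups. Differences in log2 signal, pterostilbene minus control, come with their standard error (SE) from limma's moderated test, adjusted by Benjamini-Hochberg over all tested probe sets, and rose or fell is written of a gene only where the adjusted p was under 0.05. For the alpha cell markers *STE3*, *MF(ALPHA)1*, *MF(ALPHA)2* and *SAG1*, the summed signal was 20011 to 20956 in controls and 4896 to 5972 with pterostilbene, and 4 of 4 fell. The 7 markers of a cells were *STE2*, *MFA1*, *MFA2*, *BAR1*, *STE6*, *AGA2* and *ASG7*. Their summed signal was 389 to 518 in controls and 764 to 1018 with pterostilbene. The largest part was *MFA1*, with means of 241 in controls and 524 with pterostilbene. Control means of *STE2*, *BAR1*, *STE6*, *AGA2* and *ASG7* were 2.9 to 36.1, within the 1.1 to 40.9 of antisense control probe sets. Of the 7 markers, 4 rose (*MFA1*, *BAR1*, *STE6* and *ASG7*) and 1, *STE2*, fell. None was at 0 on any array, and the part of either marker list in the results below was not tested.

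Genes of the cascade changed in both directions. The G protein alpha and beta subunit genes, the MAP kinase gene *FUS3*, the transcription factor gene *STE12* and the effector and regulator genes *FAR1* and *SST2* fell, whereas the scaffold gene *STE5* and the upper kinase genes *STE11* and *STE7* rose. *STE18*, for the G protein gamma subunit, did not pass the test. Counting 1 probe set per gene, 9 of 10 genes were called in either direction, where 54.2% of all 5656 genes were. Of the 10, 6 fell, where 18.4% of all genes fell, and 3 rose, where 35.8% of all genes rose. The same numbers had signals with no overlap of the groups, 6 lower, where 24.5% of all genes were, and 3 higher, where 44.2% were. Of the 6 that fell, 5 did so by at least 1 log2 unit, a size that 3.98% of all genes reached in that direction. Only *STE5* rose by at least 1 log2 unit, where 17% of all genes did. The median log2 difference was -1.09 over the 10 genes and 0.22 over all genes. In bulk cultures, fewer cells that express a gene and less of its RNA per cell cannot be told apart.

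**Figure D1:**
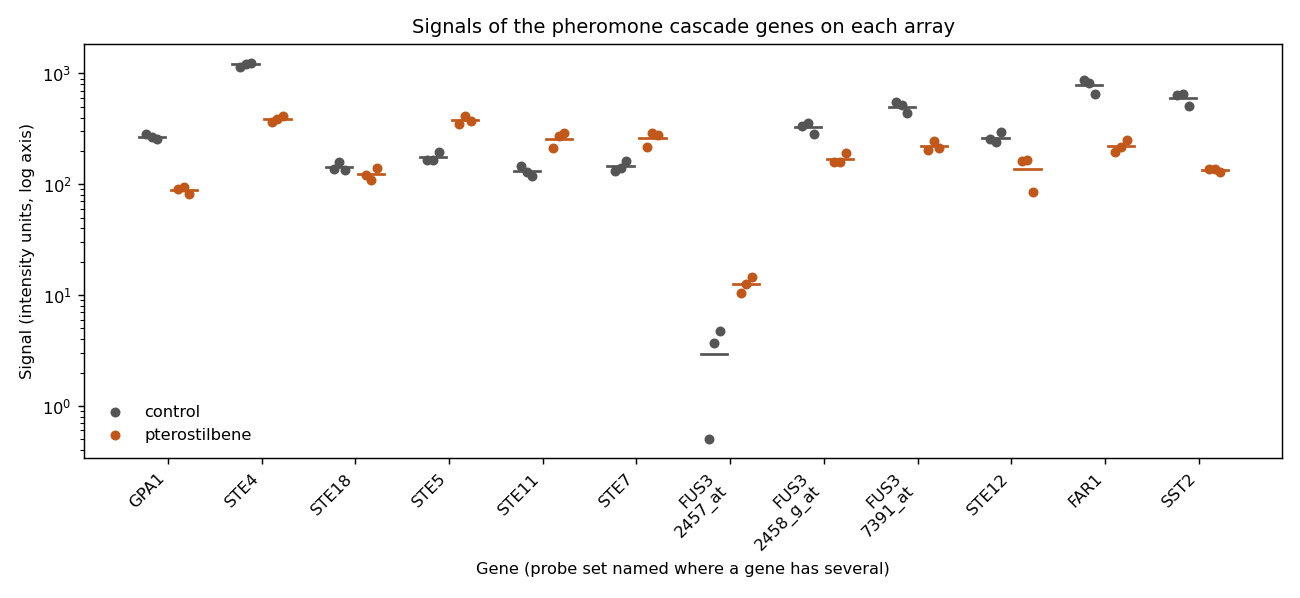
Signals of the 12 probe sets on each of the 6 arrays, on a log axis in intensity units, with dots for single arrays and bars for the mean of the 3 arrays of a group. The groups are separate for every probe set but that of *STE18*, with the pterostilbene arrays lower for *GPA1*, *STE4*, *STE12*, *FAR1*, *SST2* and both brighter *FUS3* probe sets, and the dimmest *FUS3* probe set lies below 15 on all arrays.

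*GPA1* (YHR005C) encodes the alpha subunit, which holds the beta-gamma dimer inactive until a receptor is bound. Its signals were 286, 264.5 and 258 on the control arrays and 91.4, 94.3 and 81.4 on the pterostilbene arrays. Each pterostilbene array was far under the lowest control array. Its mean went from 269 ± 14.6 to 89.0 ± 6.77 (SD, n = 3 each). The log2 difference was -1.60 (SE 0.11, adjusted p = 3.1e-04 in limma).

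*STE4* (YOR212W) encodes the beta subunit, which carries the signal onward to the scaffold and to Ste20p. The controls gave 1154, 1211 and 1247, and the pterostilbene arrays gave 365, 387 and 416. The groups were well apart and the spread inside each was small, at 1204 ± 46.9 and 389 ± 25.5 (SD, n = 3 each). The log2 difference of *STE4* was -1.63 (SE 0.10, adjusted p = 2.4e-04 in limma).

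*STE18* (YJR086W) encodes the gamma subunit, which anchors the dimer in the membrane by its lipid modification. Its signals were 138, 158 and 133 in the controls and 121, 110 and 141 with pterostilbene. The groups overlapped, since the highest pterostilbene array lay above 2 of the 3 controls. The log2 difference was -0.21 (SE 0.14, adjusted p = 0.26 in limma), with a 95% interval of -0.55 to 0.13. *STE18* was called lower after quantile normalization (-0.68, adjusted p = 0.012) and after each array was centred on its median (-0.66, adjusted p = 0.0092). On the deposited scale it was called lower with array weights (-0.36, adjusted p = 0.029), so its call depended on the scaling and on the weighting of the arrays.

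*STE5* (YDR103W) encodes the scaffold that binds the 3 tiers of kinases and the beta subunit. Its signals were 165, 166 and 196 in the controls and 352, 410.5 and 371 with pterostilbene. Every pterostilbene array lay above every control array, and the mean went from 176 ± 17.7 to 378 ± 29.9 (SD, n = 3 each). On the log2 scale *STE5* rose by 1.10 (SE 0.12, adjusted p = 0.0013 in limma), the largest rise among the 10 genes.

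*STE11* (YLR362W) encodes the MAP kinase kinase kinase, which the filamentation and osmotic stress pathways use as well. The controls gave 146, 130.3 and 119.5, and the pterostilbene arrays gave 213, 272 and 290.5. The groups did not overlap. The log2 difference of *STE11* was 0.96 (SE 0.16, adjusted p = 0.0049 in limma).

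*STE7* (YDL159W) encodes the MAP kinase kinase, which phosphorylates Fus3p and Kss1p. Its signals were 132, 141 and 161 in the controls and 219, 287 and 278 with pterostilbene, again with no overlap. The log2 difference was 0.85 (SE 0.15, adjusted p = 0.0066 in limma). After quantile normalization *STE7* had a log2 difference of 0.45 (adjusted p = 0.053) and after median centring 0.40 (adjusted p = 0.070), and neither passed the test.

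*FUS3* (YBL016W) encodes the MAP kinase specific to mating. On its brightest probe set, 7391_at, the signals were 553, 515 and 438.5 in the controls and 206, 243 and 210.5 with pterostilbene, a log2 difference of -1.19 (SE 0.13, adjusted p = 0.0014 in limma). The probe set 2458_g_at gave 333, 357 and 287 against 159, 158 and 190.2, a log2 difference of -0.95 (SE 0.14, adjusted p = 0.0031). On both, all pterostilbene arrays were below all control arrays. The third probe set, 2457_at, was at 0.5, 3.7 and 4.7 in the controls and 10.5, 12.7 and 14.6 with pterostilbene, close to the range of 0.7 to 8.8 that probe sets for mouse genes had over the 6 arrays. This difference ran opposite to the others and did not pass the test (adjusted p = 0.054). It passed without control replicate 1 (1.58 on the log2 scale, adjusted p = 0.0063) and without control replicate 3 (3.20, adjusted p = 0.043). It also passed after reference gene centring (adjusted p = 0.046) and with a pseudocount of 8.6 (0.0037). So it did with trend and robust moderation (0.032) and with array weights (0.021). After a floor was set on low signals at 22.6, nothing of it was left.

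*STE12* (YHR084W) encodes the transcription factor at the end of the cascade. The controls gave 256, 240.1 and 295, and the pterostilbene arrays gave 162, 167 and 84.9. No pterostilbene array reached the controls, but replicate 3 was well under the other pterostilbene signals. The log2 difference was -0.99 (SE 0.29, adjusted p = 0.035 in limma), with the widest error of the genes that fell. The call was lost without control replicate 1 (adjusted p = 0.080), 2 (0.066) or 3 (0.095) and without pterostilbene replicate 1 (0.05003), while without pterostilbene replicate 3 the log2 difference was -0.68 (adjusted p = 0.014). The adjusted p was 0.065 after reference gene centring, and over all alternatives it was 0.010 to 0.095.

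*FAR1* (YJL157C) encodes the protein that arrests the cell cycle in G1 by inhibiting the Cln kinase and that guides polarity toward the mating partner. Its signals were 864, 828 and 646 in the controls and 195, 217 and 251 with pterostilbene. The lowest control was more than double the highest pterostilbene array. This gave *FAR1* a log2 difference of -1.81 (SE 0.16, adjusted p = 7.2e-04 in limma).

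*SST2* (YLR452C) encodes the regulator of G protein signalling that speeds the return of Gpa1p to its inactive form and so dampens the response. The controls gave 639.6, 654 and 508, and the pterostilbene arrays gave 138, 138 and 128. The pterostilbene signals were close to each other and far below the controls, at 135 ± 6.09 against 600.4 ± 80.3 (SD, n = 3 each). The log2 difference was -2.15 (SE 0.13, adjusted p = 2.5e-04 in limma), the deepest fall among the 10 genes, a 4.43-fold decrease.

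On the deposited scale the median gene was 0.22 higher on the log2 scale. This shift was -0.13 after quantile normalization, -0.23 after median centring and 0.36 after centring on 5 reference genes (*ACT1*, *ALG9*, *TAF10*, *TFC1* and *UBC6*). Quantile normalized signals gave 21.6% of all genes higher and 30.4% lower, and median centred ones gave 19.3% higher and 39% lower. For the 10 cascade genes the split went from 3 higher and 6 lower to 2 higher and 7 lower under both, with *STE7* no longer called and *STE18* called lower. *GPA1*, *STE4*, *FUS3*, *FAR1* and *SST2* fell and *STE5* and *STE11* rose under each of these 4 scalings. For *SST2* the log2 difference ran from -2.60 to -2.01 over the scalings, for *STE4* from -2.08 to -1.50, for *STE5* from 0.65 to 1.24 and for *STE11* from 0.51 to 1.10. Probe sets of low signal moved up and those of high signal moved down across the arrays. In the second quartile of mean log2 signal over all arrays, which holds *GPA1*, *STE18*, *STE11*, *STE7* and *STE12*, the median log2 difference was 0.35, with 42.6% of genes called higher and 10.7% lower. In the third quartile, which holds *STE5*, *FUS3*, *FAR1* and *SST2*, it was 0.17, with 36.4% higher and 17.6% lower, and in the fourth, which holds *STE4*, it was -0.21, with 23.5% higher and 39.3% lower. Its part in the single values was not tested.

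**Figure D2:**
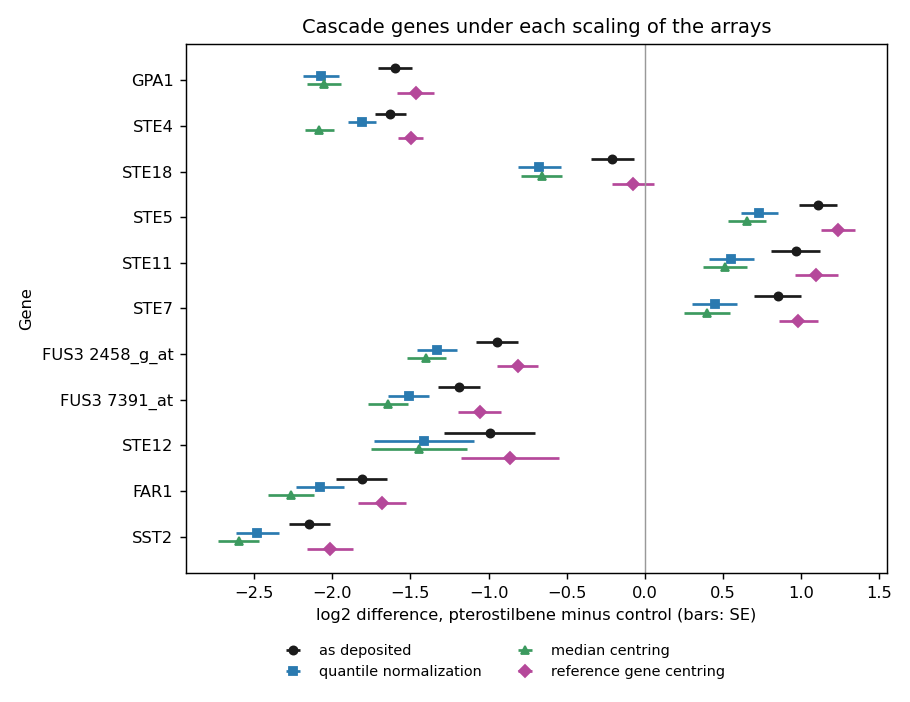
Difference in log2 signal between pterostilbene and control arrays for the cascade genes, with SE as bars, for the signals as deposited and after 3 other scalings; the dimmest *FUS3* probe set is left out. *SST2* lies between -2.60 and -2.01 and *STE5* between 0.65 and 1.24, on the same side of 0 under each scaling.

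Ratios of 2 probe sets on the same array do not depend on a constant factor applied to that array, as in median or reference gene centring, although quantile normalization can move them. The change in such ratios was compared for 6 pairs of cascade genes and for the 2 brighter *FUS3* probe sets. With 3 arrays in each group the smallest two-sided p of an exact permutation test is 0.1, and adjusted over the 7 pairs the smallest value was 0.175. The ratio of *STE4* to *STE18*, which encode the partners of one dimer, was lower on every pterostilbene array than on any control array (log2 difference -1.42, SE 0.12, exact p = 0.1). The ratio of *STE4* to *GPA1* differed by -0.03 (SE 0.14, exact p = 0.9) and overlapped, whereas quantile normalized signals gave 0.26 (SE 0.13, exact p = 0.1) with no overlap, so its direction depended on the scaling. Against *FUS3*, the log2 ratio was higher by 2.29 for *STE5* (SE 0.18, exact p = 0.1) and by 2.04 for *STE7* (SE 0.21, exact p = 0.1), both with no overlap. The ratio of *STE11* to *STE7* differed by 0.12 (SE 0.17, exact p = 0.7) and the arrays overlapped. The ratio of *SST2* to *GPA1*, a regulator and its substrate, differed by -0.55 (SE 0.10, exact p = 0.1), and the arrays did not overlap. The *FUS3* probe sets 7391_at and 2458_g_at differed in their change by -0.24 (SE 0.15, exact p = 0.3), within the spread of the arrays. Apart from *STE4* against *GPA1*, each pair kept its direction after quantile normalization, with -1.13 for *STE4* against *STE18*.

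**Figure D3:**
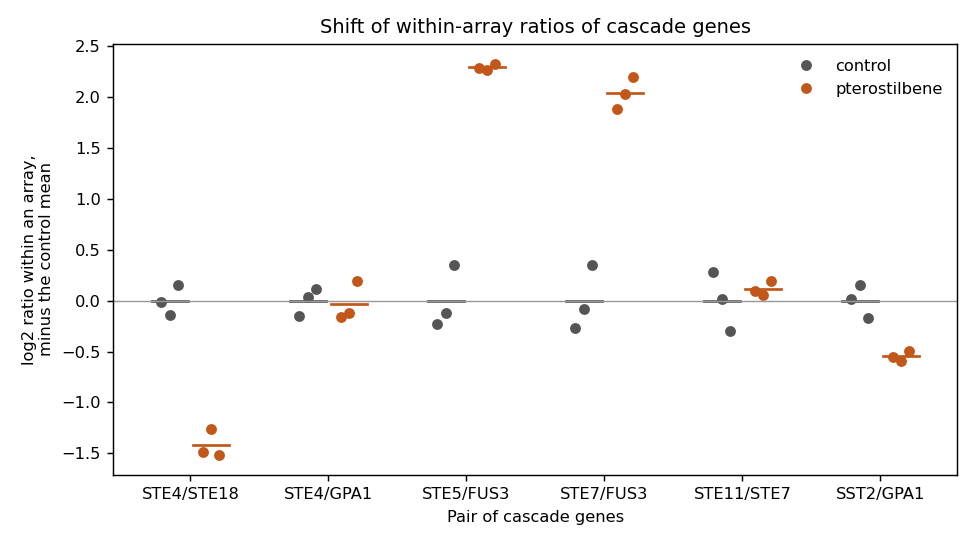
Shift of the log2 ratio of 2 cascade genes within an array, from the signals as deposited, relative to the mean of the 3 control arrays, with dots for arrays and bars for group means. Against *FUS3* the mean of *STE5* lies at 2.29 and that of *STE7* at 2.04, and *STE4* against *STE18* shifted by -1.42, while *STE4* against *GPA1* and *STE11* against *STE7* overlapped.

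Genes that lie next to the cascade genes on the chromosomes went both ways. Of 20 nearest measured neighbours in the RefSeq gene table, 1 on each side of every cascade gene, 3 were called higher, 3 lower and 14 neither, beside 35.8% of all genes higher and 18.4% lower. Median centring gave 2 higher and 8 lower, where 19.3% of all genes were higher and 39% lower. *MGM1*, beside *STE4*, had a log2 difference of 1.28 (adjusted p = 0.0026), opposite to that of *STE4*. On the deposited scale *PEP1* beside *FUS3* (0.43, adjusted p = 0.012) and *DHH1* beside *STE7* (-0.41, adjusted p = 0.021) also ran opposite. *SPO71* beside *STE5* (1.46, adjusted p = 9.0e-04), *CIS3* beside *FAR1* (-0.43) and *IPI1* beside *STE12* (-0.47) ran the same way. The call of *CIS3* was lost in 7 of 16 alternatives, among them quantile normalization (-0.13, adjusted p = 0.41).

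The 30 other genes of the same signalling route that were analysed went both ways, with 9 higher, 7 lower and 14 that did not pass the test, counts near the background of 35.8% of all genes higher and 18.4% lower. Their median log2 difference was -0.03. Median centring left 2 of them higher and 18 lower, where 19.3% of all genes were higher and 39% lower. With quantile normalized signals the split was 2 and 15, where 21.6% of all genes were higher and 30.4% lower. *STE3*, the receptor of alpha cells for a-factor, had signals of 1851, 1815 and 1579.7 in the controls and 183, 224 and 222 with pterostilbene, a log2 difference of -3.06 (SE 0.13, adjusted p = 1.1e-04 in limma). It is also one of the alpha cell markers above. *STE14*, the methyltransferase that completes the modification of Ste18p and a-factor, fell by 1.04 on the log2 scale (adjusted p = 8.3e-04), and *RAM2*, a subunit of the farnesyltransferase that acts before it, fell by 0.61 (adjusted p = 0.0039).

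Upstream of the kinases, *STE20*, which phosphorylates Ste11p, had a log2 difference of 0.50 (adjusted p = 0.025), and *STE50*, an adaptor that binds Ste11p, 0.68 (adjusted p = 0.0046). *CDC24*, the exchange factor that activates Cdc42p, rose by 0.99 on the log2 scale (SE 0.11, adjusted p = 0.0014), and *CDC42* itself fell by 0.71 (adjusted p = 0.0044). *RGA1* (0.82) and *RGA2* (0.68), GTPase-activating proteins of Cdc42p, rose on the log2 scale. Of these, only *CDC24* rose and *CDC42* fell under all 4 scalings, since *STE20*, *STE50*, *RGA1* and *RGA2* were not called once arrays were quantile normalized or median centred. Over all 16 alternatives the calls of *STE20* and *RGA2* were each lost in 8, that of *RGA1* in 3 and that of *STE50* in 2.

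At the end of the cascade, *KSS1*, the MAP kinase closest to *FUS3*, was at 77.8, 56.8 and 56.0 in the controls and 42.3, 40.5 and 18.2 with pterostilbene. These did not overlap, but the log2 difference of -0.996 (SE 0.37) did not pass the test (adjusted p = 0.071). *KSS1* was called lower after quantile normalization and median centring. The same held with the pseudocount (adjusted p = 0.035), the dimmest 25% left out (0.027), trend and robust moderation (0.031) and array weights (0.039). It was not called in 10 of 16 alternatives, and its pterostilbene replicate 3 lay under the floor of 22.6. *TEC1*, which joins Ste12p at filamentation genes, was at 900.0, 982 and 958 in the controls and 328, 286 and 329 with pterostilbene, a log2 difference of -1.59 (SE 0.11, adjusted p = 3.0e-04). *KAR4*, a cofactor of Ste12p at karyogamy genes, fell by 0.85 on the log2 scale (adjusted p = 0.0046). *DIG1*, an inhibitor of Ste12p, had 0.52 (adjusted p = 0.020) and *MCM1*, a partner of Ste12p at mating genes, 0.68 (adjusted p = 0.013), and neither was called once arrays were quantile normalized or median centred.

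Among negative regulators, *PTP2*, a tyrosine phosphatase known to act on Hog1p and Fus3p, was at 154, 136 and 173 in the controls and 917, 888 and 1003 with pterostilbene on its brightest probe set. All pterostilbene signals were far above the highest control. The log2 difference of *PTP2* was 2.61 (SE 0.13, adjusted p = 1.6e-04), the largest rise of the list, and its 4 dimmer probe sets had 2.05 to 2.55, of which that at 2.55, probe set 2649_at, did not pass (adjusted p = 0.093). *AFR1*, which counters receptor signalling, rose by 0.73 on the log2 scale (adjusted p = 0.018), but was not called with quantile normalized (0.27, adjusted p = 0.20) or median centred signals (0.27, adjusted p = 0.19). *YCK1*, a casein kinase that acts in receptor turnover, fell by 0.75 (adjusted p = 0.0027). Without pterostilbene replicate 2 the number of these 30 genes that rose was 4, namely *CDC24*, *MCM1*, *PTP2* and *STE50*.

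Of 20 genes listed as induced by pheromone and not among the 10, 9 were called lower, 3 higher and 8 neither, beside 18.4% of all genes lower and 35.8% higher, with a median log2 difference of -0.67. Under either of 2 other scalings, quantile normalized or median centred, 14 were lower and 1 higher. Of all genes, 30.4% and 39% were then lower and 21.6% and 19.3% higher, in that order. The deepest falls of the list on the deposited scale began with *AGA1*, the anchor subunit of a-agglutinin, with a log2 difference of -2.32 (adjusted p = 5.8e-04). Next came *PRM1*, of plasma membrane fusion, with -1.92 (adjusted p = 2.4e-04), *PRM6* with -1.89 (adjusted p = 0.0032) and *FIG1*, of calcium influx in mating, with -1.79 (adjusted p = 0.0011). On the pterostilbene arrays *PRM6* was at 10.6 to 21.3 and *FIG1* at 10.8 to 16.2, under the floor of 22.6. Over the alternatives the log2 difference ran from -2.65 to -1.20 for *PRM6* and from -2.55 to -1.10 for *FIG1*. *FIG2*, *CIK1*, *PCL2*, *GIC2* and *FUS2* fell as well, with log2 differences of -1.14 to -0.70. The call of *FUS2* was lost after reference gene centring (-0.57, adjusted p = 0.057) and without control replicate 1 (adjusted p = 0.068) or 2 (0.065). *FUS1*, the gene most used as a reporter of the pathway, had signals of 153, 127 and 116 in the controls and 92.7, 102 and 125 with pterostilbene. These overlapped, and its log2 difference of -0.31 (SE 0.17) did not pass the test (adjusted p = 0.18), but *FUS1* was called lower with quantile normalized (-0.80, adjusted p = 0.010) and median centred signals (-0.76, adjusted p = 0.0082) and with array weights (-0.42, adjusted p = 0.027).

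The genes of this list that rose were *PRM8* (0.92), *KAR3* (0.60), a kinesin, and *PRM4* (0.41), on the log2 scale. *PRM8* alone rose under all 4 scalings, and the count of genes that rose was 1 without control replicate 1, without control replicate 2 or without pterostilbene replicate 1. For *SCW10*, a cell wall glucanase gene, the probe sets disagreed, with -0.39 (adjusted p = 0.062) on the brighter one, 9312_at, and 1.11 (adjusted p = 0.011) on 9311_at. Median centring turned these into a call on the first (-0.84, adjusted p = 0.0035) and none on the second (0.66, adjusted p = 0.061).

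**Figure D4:**
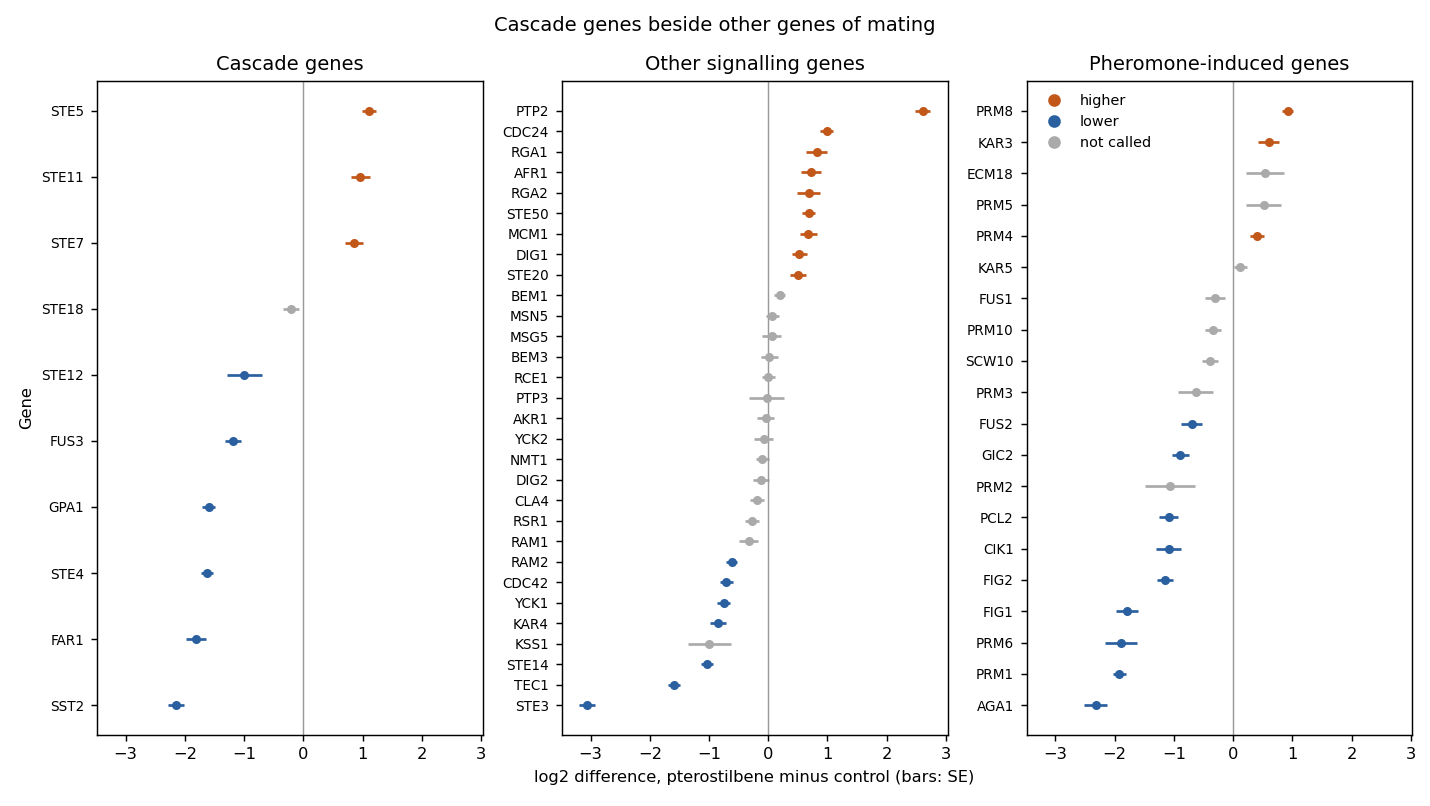
Difference in log2 signal, pterostilbene minus control, with SE as bars, for the 10 cascade genes, 30 other signalling genes and 20 pheromone-induced genes, coloured by limma's call at an adjusted p under 0.05 on the deposited scale. The cascade genes run from -2.15 for *SST2* to 1.10 for *STE5*, the other signalling genes from -3.06 for *STE3* to 2.61 for *PTP2*, and the induced genes from -2.32 for *AGA1* to 0.92 for *PRM8*.

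The upper kinases are shared with the filamentation pathway, whose 9 listed genes include *KSS1* and *TEC1*. Of these 9, 2 rose and 2 fell, beside a background of 35.8% of all genes higher and 18.4% lower, with a median log2 difference of -0.11. Median centring gave 1 higher and 4 lower, where 19.3% of all genes were higher and 39% lower. On the deposited scale *TEC1*, as above, and *MSB2* fell. *MSB2* had a log2 difference of -0.51 (adjusted p = 0.041), and its call was lost in 8 of 16 alternatives. *OPY2*, a membrane anchor for Ste50p, had 0.87 (adjusted p = 0.0020) and *HKR1*, a mucin-type sensor, 0.84 on its brightest probe set (adjusted p = 0.0038), a call lost after median centring (0.38, adjusted p = 0.063). Of the dimmer *HKR1* probe sets, 2333_s_at, 2334_s_at and 2335_s_at were called higher (0.78 to 1.12), whereas 2329_at, 2330_g_at, 2331_s_at and 2332_s_at were not called (0.05 to 1.97).

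Several cascade genes are haploid-specific, that is, transcribed in both haploid cell types and repressed in diploids. Of 4 other genes of that class, chosen after their values had been seen, *HO*, the mating-type switching endonuclease, had a log2 difference of -2.65 (adjusted p = 1.9e-04) and *RME1*, a repressor of meiosis, -1.38 (adjusted p = 0.0050). *AXL1* had -0.22 (adjusted p = 0.10) and *NEJ1* -0.11 (adjusted p = 0.47), and neither passed, although both were called lower with quantile normalized and median centred signals. *CLN1* and *CLN2*, the G1 cyclins whose kinase Far1p inhibits, were named on the same footing and had log2 differences of -1.49 (adjusted p = 3.7e-04) and -1.25 (adjusted p = 0.0017), in the same direction as *FAR1*.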

How the data were processed

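Total RNA of 6 cultures was hybridized to Yeast Genome S98 arrays. Per probe set and array the authors deposited 1 signal on a linear intensity scale, from Affymetrix software that the submitters' processing notes give as GCOS 1.1. The summarisation algorithm, background and scaling target are not given in the sources used here. Replicates lettered A to C in the labels are numbered 1 to 3.

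Of 9335 probe sets, 60 controls were set aside. The 23 signals of 0 were raised to 0.1 and log2 was taken. Symbols came from the platform annotation, updated through RefSeq's gene table (assembly R64), where all 5656 genes were found. For counts, the probe set with the highest mean log2 signal stood for a gene. The unpaired comparison used limma 3.58.1 (R 4.3.3), with Benjamini-Hochberg adjustment over 9275 probe sets, tested on simulated data. The methods describe a Student test per gene, run as an alternative. The members, gene lists, ratio pairs and named genes were chosen with earlier results of these data known. All members were named, with partners that were called at 1 log2 unit or more and others as examples. Other scalings, a pseudocount of 8.6, a floor of 22.6, the dimmest 25% left out, other moderation, array weights, the replicate block and each array left out were also run. Precision is limited by the number of arrays. Probe set sequences were not used here.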

Additional observations from a re-analysis of the deposited data

Results flagged for a closer look

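Poly-A control transcripts, bacterial RNAs supplied for spiking into a sample before labelling and outside the comparisons above, had a higher signal on the pterostilbene arrays. The geometric mean over 12 probe sets was 39.2 to 52.7 on control arrays and 186 to 258 on pterostilbene arrays, a 5.11-fold difference, while hybridization controls differed by 1.06-fold. No scaling on these controls was run, so the changes of the cascade genes are set against the rest of the transcripts on the arrays, not against total RNA, and the part of this difference in them was not tested.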

How the results depend on the processing

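Of 10 cascade genes, 3 rose and 6 fell on the deposited scale, and over the 16 alternatives 2 to 3 rose and 5 to 7 fell. The larger counts changed by over 1.5 times after quantile normalization and median centring, in that order here. Probe sets that rose went from 3105 to 1799 and 1760, and those that fell from 1295 to 2272 and 2856. Signalling partners that rose went from 9 to 2 under both and to 4 with the replicate block, and those that fell from 7 to 15 and 18. Pheromone-induced genes that rose went from 3 to 1 under both, and those that fell from 9 to 14 under both. With each array left out in turn, partners that rose numbered 4 to 9 and induced genes that rose 1 to 2. *PRM4* turned to -0.044 after median centring (adjusted p = 0.76).

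Same-numbered arrays did not deviate together (r of -0.04 to -0.01 over probe sets), so the replicate block rests on a shared number alone. With it 3406 probe sets were called, against 4400 without it, and 3311 were shared. *STE12* was the only one of the 10 genes whose call it ended.

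Quantile normalization of the ratio pairs and the scalings of the filamentation and neighbour counts were added after seeing the data. So were all alternatives for *OPY2*, *HKR1*, *MSB2*, *MGM1* and *CIS3*.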
